A study of Nicotiana tabacum with 6 samples.

Results

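Glandular trichomes are leaf hairs whose head cells make and secrete terpenoids. In tobacco (Nicotiana tabacum) these are mainly diterpenes of the labdane and cembrane types, built from geranylgeranyl diphosphate by terpene synthases, oxidised by cytochrome P450 enzymes and carried out of the cell by membrane transporters. A separate branch leads from farnesyl diphosphate to capsidiol, a sesquiterpene phytoalexin that leaf cells make after contact with a pathogen or an elicitor, and its last step is also a P450 reaction. P450 enzymes of the CYP71D subfamily act in both branches in plants.

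The genes described here are 6 of the 68476 loci in the deposited table, chosen by gene number: NtABS (ncbi_107816701), NtPDR1 (ncbi_107799533), CYP71D20 (ncbi_107759261), CYP71D47 (ncbi_107777210), CYP71D48 (ncbi_107792854) and CYP71D5 (ncbi_107788281). Poly(A) RNA of mature leaves was sequenced in 6 libraries, 3 from plants labelled OE-NtispH, for overexpression of NtispH, and 3 from plants labelled WT (wild type). NtispH encodes the enzyme that completes the MEP pathway of plastids, which supplies the precursors of diterpenes. The sources used here give neither the promoter of the transgene, nor the number of transgenic lines, nor the age of the plants. They also do not say whether each library is a plant of its own, so the p-values reflect the variation among these 6 libraries, part or all of which may be technical. Values are FPKM, fragments scaled by transcript length and by the mapped fragments of the library, so levels can be set side by side between genes.

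The labels and the tissue were checked first. ISPH (LOC107760258), the locus of NtispH, was listed at 2761, 684.6 and 853.7 FPKM in the 3 OE-NtispH libraries, against 108.2, 3038 and 558.6 FPKM in the 3 WT libraries. The highest value stood in a library labelled WT, so ISPH did not separate the groups (limma, adjusted p = 0.667), and each direction below is between the libraries as labelled. Leaf mesophyll markers were abundant, and 15 nuclear genes of light harvesting, photosystems and rubisco activase summed to 23510 to 27444 FPKM in the OE-NtispH libraries and to 31337 to 34487 FPKM in the WT libraries. All 15 had a log2 change below 0, with a median of -0.42, while 66.3% of all tested loci were above 0. By unadjusted p under 0.05 there were 11 of the 15, against 26.4% of all tested loci. Lhcb6 (LOC107792047) passed the test, lower in OE-NtispH (limma, adjusted p = 0.0486), as did 0.567% of all tested loci. Of 18 loci of nicotine synthesis and transport, typical of roots, 9 were at 0 in every library, among them the putrescine methyltransferase and A622 loci, and the list summed to 24.2 to 63.1 FPKM in OE-NtispH and to 41.1 to 43.2 FPKM in WT. Not all of the list was silent, and QPT2A (LOC107829122) was its highest locus. It was at 35.0, 37.6 and 16.5 FPKM in the OE-NtispH libraries, against 30.6, 32.9 and 29.8 FPKM in the WT libraries. Of 11 loci of cell division, 8 were tested, and 6 of the 8 had a log2 change below 0; the 11 summed to 25.8 to 28.5 FPKM in OE-NtispH and to 35.0 to 38.4 FPKM in WT. The part of the mesophyll and cell division loci in the results below was not tested. Of the trichome markers chosen, only NtABS matched a name in the gene table. In whole leaves, fewer trichomes and less RNA per trichome cannot be told apart.

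NtABS encodes abienol synthase, the terpene synthase that forms the labdane alcohol cis-abienol in glandular trichomes. It was at 10.3, 11.9 and 9.97 FPKM in OE-NtispH replicates 1, 2 and 3, against 10.9, 11.4 and 9.24 FPKM in WT replicates 1, 2 and 3. The ranges of the groups overlapped, and the highest library was only 1.29 times the lowest. The group means were 10.7 ± 1.03 FPKM in OE-NtispH and 10.5 ± 1.12 FPKM in WT (SD, n = 3 each). The log2 change was 0.03 ± 0.13 (SE; limma, adjusted p = 0.912), with a 95% interval of -0.26 to 0.32, so a change of either sign within those bounds is not excluded by these libraries. The sign of this small difference turned with the scaling, to -0.12 with median-of-ratios scaling and to -0.13 with quantile normalization. Between libraries of 1 group NtABS varied little: its within-group SD was 0.13 on the log2(FPKM + 1) scale, and 23.6% of the 40725 tested loci had a lower one.

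NtPDR1 encodes a full-size ABC transporter of the pleiotropic drug resistance type, which exports diterpenes, is known from trichomes and is also induced by elicitors in cultured tobacco cells. Its level was 226.4, 111.7 and 204.5 FPKM in OE-NtispH replicates 1, 2 and 3, against 145.2, 108.5 and 115.7 FPKM in WT replicates 1, 2 and 3. OE-NtispH replicates 1 and 3 were above all WT libraries, while OE-NtispH replicate 2 lay inside the WT range. The means were 180.8 ± 60.9 FPKM in OE-NtispH and 123.1 ± 19.5 FPKM in WT (SD, n = 3 each). The log2 change of NtPDR1 came to 0.50 ± 0.27 (SE; limma, adjusted p = 0.272) with a 95% interval of -0.12 to 1.11. Without OE-NtispH replicate 2 the log2 change was 0.81 ± 0.16 (SE; limma, adjusted p = 0.0456) and passed the threshold, as 1.77% of all tested loci did in the same direction. Over all other alternatives it missed the threshold, with adjusted p up to 0.744.

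The other ABC transporter genes with a name of this type were PDR5a and PDR5b, related transporters known in tobacco from defence against insects. PDR5a (LOC107831523) was at 65.1, 21.3 and 43.2 FPKM in the OE-NtispH libraries, against 22.6, 16.8 and 15.2 FPKM in the WT libraries. PDR5b (LOC107828362) was at 36.6, 11.9 and 9.32 FPKM in the OE-NtispH libraries, against 6.47, 5.52 and 4.09 FPKM in the WT libraries. Its groups did not overlap, as was so for 32.5% of all tested loci. Like NtPDR1, both were highest in OE-NtispH replicate 1, and PDR5a had its lowest OE-NtispH value in replicate 2. Neither of the 2 passed the test (limma, adjusted p = 0.156 and 0.149 for log2 changes of 1.09 and 1.45), although both had an unadjusted p under 0.05, as did 26.4% of all tested loci.

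CYP71D47 encodes a P450 for which no substrate is given here. It was at 29.3, 18.6 and 20.7 FPKM in OE-NtispH replicates 1, 2 and 3, against 13.0, 17.2 and 17.4 FPKM in WT replicates 1, 2 and 3. In the FPKM as deposited, every OE-NtispH library was above every WT library, by a margin of little more than 1 FPKM between OE-NtispH replicate 2 and WT replicate 3. The median-of-ratios factors of these libraries, 1.04 and 0.935, are enough to close that margin. Among the 6 genes CYP71D47 alone had groups that did not overlap, as 32.5% of all tested loci did. The log2 change was 0.49 ± 0.19 (SE; limma, adjusted p = 0.146) with a 95% interval of 0.06 to 0.91, and means were 22.9 ± 5.69 FPKM in OE-NtispH and 15.9 ± 2.45 FPKM in WT (SD, n = 3 each). With median-of-ratios scaling and with quantile normalization the log2 change of CYP71D47 was 0.34 (limma, adjusted p = 0.334 and 0.310).

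CYP71D48, another CYP71D gene without a substrate given here, was at 10.7, 5.71 and 6.08 FPKM in OE-NtispH replicates 1, 2 and 3, against 3.89, 4.20 and 6.08 FPKM in WT replicates 1, 2 and 3. OE-NtispH replicate 1 stood apart from the other 5 libraries, and WT replicate 3 lay within the OE-NtispH range. The means were 7.50 ± 2.79 FPKM in OE-NtispH and 4.72 ± 1.18 FPKM in WT (SD, n = 3 each). This gave a log2 difference of 0.54 ± 0.24 (SE; limma, adjusted p = 0.195) with a 95% interval of -0.01 to 1.10.

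CYP71D5 was the scarcest of the 6 genes. Its mean was 0.913 ± 0.346 FPKM in OE-NtispH and 0.401 ± 0.205 FPKM in WT (SD, n = 3 each), so it passed the limit of 0.5 FPKM for testing only through the OE-NtispH libraries, and its difference is given as a description. It was at 1.29, 0.605 and 0.847 FPKM in OE-NtispH replicates 1, 2 and 3, against 0.207, 0.615 and 0.382 FPKM in WT replicates 1, 2 and 3. OE-NtispH replicate 2 and WT replicate 2 were almost level, which is where the groups overlapped. The ratio of mean FPKM, OE-NtispH over WT, was 2.27, but the log2 change on the log2(FPKM + 1) scale was 0.44 ± 0.20 (SE; limma, adjusted p = 0.205), and with a pseudocount of 0.1 it was 1.04 ± 0.49 (SE; limma, adjusted p = 0.216). At so low a level the size of the difference depends on the pseudocount.

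**Figure D1:**
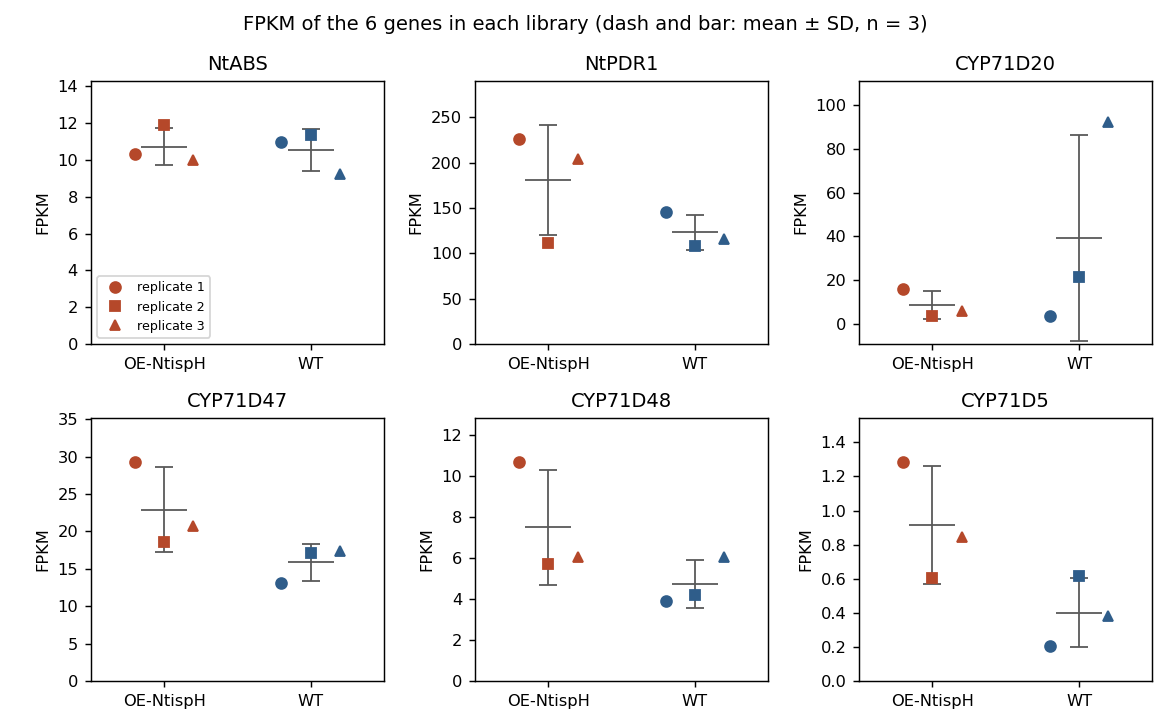
FPKM of NtABS, NtPDR1, CYP71D20, CYP71D47, CYP71D48 and CYP71D5 (vertical axes, linear, 1 scale per gene) in 3 OE-NtispH and 3 WT libraries; symbols mark the replicate number, dashes the mean and bars the SD (n = 3), and the SD bar of CYP71D20 in WT reaches below 0 because the SD exceeds the mean. NtABS lies between 9.24 and 11.9 FPKM in all 6 libraries, CYP71D47 is the gene whose groups do not overlap, and CYP71D20 spans 3.67 to 92.5 FPKM within WT.

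NtABS, NtPDR1 and the P450 genes CYP71D47, CYP71D48 and CYP71D5 thus had log2 changes above 0, as did 66.3% of all tested loci. The median log2 change of all tested loci was 0.13, and relative to it the differences were -0.11 for NtABS, 0.37 for NtPDR1, 0.36 for CYP71D47, 0.41 for CYP71D48 and 0.31 for CYP71D5. CYP71D5 was tested only because of its OE-NtispH values, so its place above 0 adds nothing to that count. None of the 6 genes passed the test, against 1.81% of all tested loci (limma, Benjamini-Hochberg adjustment at 0.05). By unadjusted p under 0.05 there was 1 of the 6, CYP71D47, against 26.4% of all tested loci, and limma without trend and robust estimation called 0 of the 6. With median-of-ratios scaling or quantile normalization, 0 of the 6 had an unadjusted p under 0.05. Of the 40725 tested loci, 8847 and 8620 did. NtPDR1, CYP71D47, CYP71D48 and CYP71D5 each had their highest value in OE-NtispH replicate 1, the highest library for 29.2% of all tested loci. Without both that library and WT replicate 3, an alternative chosen after seeing the data, log2 changes were 0.27, 0.37, 0.45 and 0.30 for these 4 genes, and 0 of the 6 passed.

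CYP71D20 encodes the dihydroxylase that turns the sesquiterpene epi-aristolochene into capsidiol, and is the elicitor-type gene of the set. It was at 15.8, 3.68 and 6.16 FPKM in OE-NtispH replicates 1, 2 and 3, against 3.67, 21.6 and 92.5 FPKM in WT replicates 1, 2 and 3. WT held both the lowest and the highest of the 6 values, so that all OE-NtispH libraries fell inside the WT range. The lowest values were almost tied, at 3.674 FPKM in WT replicate 1 and 3.678 FPKM in OE-NtispH replicate 2. The highest library was 25.2 times the lowest. Means were 8.55 ± 6.41 FPKM in OE-NtispH and 39.3 ± 47.0 FPKM in WT (SD, n = 3 each). The log2 difference was -1.38 ± 1.23 (SE; limma, adjusted p = 0.520) with a 95% interval of -4.54 to 1.79. Its size rested on WT replicate 3, since without that library the log2 change was -0.32 (limma, adjusted p = 0.872). With WT replicate 1 left out instead, a log2 change of -2.48 was found (limma, adjusted p = 0.153).

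CYP71D20 also varied more within groups than the other 5 genes. Its within-group SD was 1.67 on the log2(FPKM + 1) scale, and 99.8% of the tested loci had a lower one. The same SD was 0.42 for NtPDR1, 0.37 for CYP71D48, 0.28 for CYP71D47 and 0.23 for CYP71D5, with a median of 0.20 over all tested loci. For NtPDR1, CYP71D48, CYP71D47 and CYP71D5 the shares of tested loci with a lower SD were 89.7%, 86.3%, 73.5% and 62.5%.

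**Figure D2:**
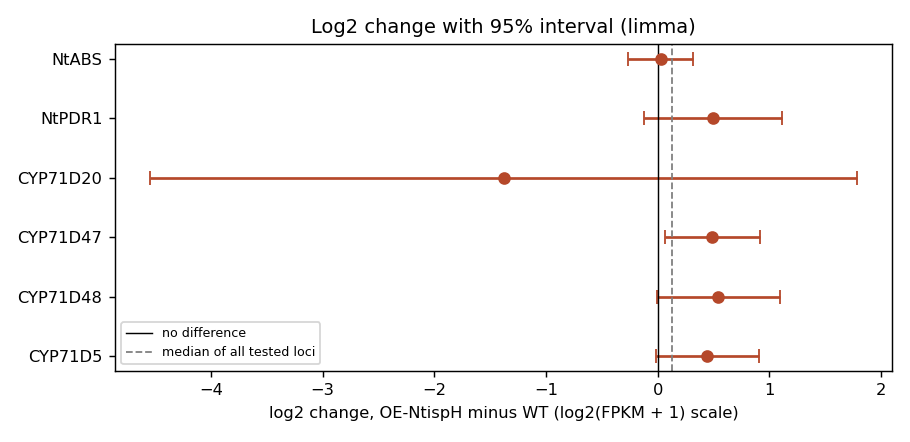
Log2 change between OE-NtispH and WT on the log2(FPKM + 1) scale (horizontal axis) for each of the 6 genes (vertical axis), with the 95% interval of the limma fit as bars. The interval of NtABS is the narrowest, from -0.26 to 0.32, that of CYP71D20 the widest, from -4.54 to 1.79, and the dashed line is the median of all tested loci at 0.13.

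Between the genes, mean levels over the 6 libraries ran from NtPDR1 at 152.0 FPKM through CYP71D20 at 23.9, CYP71D47 at 19.4, NtABS at 10.6 and CYP71D48 at 6.11 to CYP71D5 at 0.657 FPKM. NtPDR1 was above every other member in every library. CYP71D20 had no fixed place, since its range covered those of CYP71D47 and NtABS, while CYP71D47 was above NtABS in each library. CYP71D48 was below NtABS in 5 libraries and level with it in OE-NtispH replicate 1, at 10.7 and 10.3 FPKM. By mean FPKM NtPDR1 exceeded 98.7% of the tested loci and CYP71D5 exceeded 3.85%.

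To set the other genes against a trichome gene within the same library, the log2 ratio of each to NtABS was taken on values with 1 added. For NtPDR1 this log2 ratio averaged 3.90 ± 0.67 in OE-NtispH and 3.42 ± 0.25 in WT (SD, n = 3 each). For CYP71D47 it averaged 1.01 ± 0.41 in OE-NtispH and 0.54 ± 0.31 in WT (SD, n = 3 each). The differences between the groups were 0.47 for NtPDR1, 0.46 for CYP71D47, 0.52 for CYP71D48, 0.42 for CYP71D5 and -1.40 for CYP71D20. None passed an exact two-sided permutation test (unadjusted p from 0.2 to 0.4, adjusted p = 0.4 for all 5 ratios), and 3 libraries against 3 cannot give a p below 0.1. NtABS being nearly level, these ratios repeat the differences of the genes themselves.

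Of 8 loci named CYP71D in the gene table, 4 are outside the set. The locus named only CYP71D (LOC107815711) was at 5.16, 2.49 and 3.77 FPKM in the OE-NtispH libraries, against 1.93, 2.59 and 3.09 FPKM in the WT libraries, with a log2 change of 0.42 (limma, adjusted p = 0.275). CYP71D21 (LOC107825018) was at 4.18, 0.452 and 0.607 FPKM in the OE-NtispH libraries, against 0.179, 0.898 and 3.50 FPKM in the WT libraries. It was thus high in OE-NtispH replicate 1 and in WT replicate 3 and low in the other 4 libraries, and the difference between the groups was smaller than its error (log2 change 0.09, SE 0.69; limma, adjusted p = 0.948). CYP71D51 (LOC107814513) and CYP71D49 (LOC107782680) were under the limit for testing, with highest values of 1.34 and 0.246 FPKM in OE-NtispH replicate 1.

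Beyond the set, 38 other loci carry a P450 name, and 24 of them were tested. Of these, 3 rose in OE-NtispH and 0 fell (limma), against 1.24% and 0.567% of all tested loci. A log2 change above 0 was found for 17 of the 24, against 66.3% of all tested loci. The median was 0.39, against 0.13 over all tested loci. CYP72A55v1 (LOC107822676) was at 19.7, 19.0 and 14.2 FPKM in the OE-NtispH libraries, against 5.64, 4.73 and 7.81 FPKM in the WT libraries (log2 change 1.41; limma, adjusted p = 0.0291). CYP94A4 (LOC107794387), of a subfamily of fatty acid hydroxylases, was at 20.8, 14.1 and 13.0 FPKM in the OE-NtispH libraries, against 6.72, 6.82 and 6.86 FPKM in the WT libraries (log2 change 1.09; limma, adjusted p = 0.0343). CYP72A52v1 (LOC107825461) averaged 8.51 ± 3.31 FPKM in OE-NtispH and 1.71 ± 0.78 FPKM in WT (SD, n = 3 each; log2 change 1.80; limma, adjusted p = 0.0384). The groups of all 3 loci were separate, as were those of 32.5% of all tested loci, and these 3 were named because the test called them. With each library left out in turn, the log2 change stayed between 1.27 and 1.58 for CYP72A55v1, 0.90 and 1.21 for CYP94A4, and 1.53 and 1.99 for CYP72A52v1. Each passed in 2 of these 6 fits (limma, adjusted p up to 0.140, 0.156 and 0.172), those without OE-NtispH replicate 2 or 3. Over all tested loci 0 to 17 were called in the other 4 fits, those without a WT library or OE-NtispH replicate 1, against 737 with all 6 libraries. Of the 24 tested P450 loci, 12 had their highest value in OE-NtispH replicate 1, the highest library for 29.2% of all tested loci.

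Genes that supply terpenoid precursors were next compared. Of 13 tested loci of the MEP pathway, the mevalonate pathway and prenyl diphosphate synthesis, 9 had a log2 change below 0, with a median of -0.21, and 1 passed, lower in OE-NtispH, against 0.567% of all tested loci. That locus, dxs (LOC107790348), for the entry enzyme of the MEP pathway, was at 60.5, 76.7 and 75.6 FPKM in the OE-NtispH libraries, against 113.4, 113.6 and 113.2 FPKM in the WT libraries (log2 change -0.68; limma, adjusted p = 0.0473). With each library left out in turn the log2 change of dxs was -0.74 to -0.57, and it passed in the same 2 of the 6 fits (limma, adjusted p up to 0.190). Another dxs locus (LOC107818796) and ipi2 (LOC107808635), for an isopentenyl diphosphate isomerase, missed the threshold (limma, adjusted p = 0.0564 and 0.0624). A further locus, DXS (LOC107773391), went the other way, with a log2 change of 0.54 (limma, adjusted p = 0.304). It was at 4.49, 4.36 and 1.38 FPKM in the OE-NtispH libraries, against 1.73, 1.98 and 1.81 FPKM in the WT libraries. On the path to capsidiol, HMGR2 (LOC107777769), of the mevalonate pathway, was at 7.70, 7.10 and 11.4 FPKM in the OE-NtispH libraries, against 108.4, 36.4 and 18.4 FPKM in the WT libraries. HMGR1 (LOC107832729) went the other way, with a log2 change of 0.31 (limma, adjusted p = 0.664). HMGR1 was at 4.24, 3.73 and 0.85 FPKM in the OE-NtispH libraries, against 1.44, 1.60 and 2.80 FPKM in the WT libraries. FPPS (LOC107795792), named here after its values were seen, makes farnesyl diphosphate and was at 9.16, 9.47 and 7.46 FPKM in the OE-NtispH libraries, against 29.2, 12.9 and 20.3 FPKM in the WT libraries. The log2 change of FPPS was -1.11 (limma, adjusted p = 0.0677). WT replicate 1 was the highest library for 4 of the 13 loci, among them HMGR2, FPPS and ipi2, against 11.0% of all tested loci. CYP71D20 was lowest in that library, though almost tied with OE-NtispH replicate 2.

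Among elicitor genes, a list of 17 tested loci, none passed the test, against 1.81% of all tested loci, and 3 had an unadjusted p under 0.05, against 26.4% of all tested loci: NtSIPK (LOC107772177), a MAP kinase of defence signalling, ACRE271 (LOC107824781) and HMGR2 (limma, adjusted p = 0.0899, 0.0929 and 0.126). These 3 did not share a direction, with log2 changes of 0.45, 0.42 and -2.17. In the whole list 5 log2 changes were above 0 and 12 below. NtSIPK and ACRE271 were lowest in WT replicate 3, at 9.47 and 6.89 FPKM. WT replicate 3 was the highest library for 11 of the 17, against 13.1% of all tested loci, and it was the highest for CYP71D20. The following 3 loci were named after their values were seen. ACRE1 (LOC107769990) was at 11.4, 3.16 and 0.444 FPKM in OE-NtispH replicates 1, 2 and 3, against 0.376, 18.8 and 70.1 FPKM in WT replicates 1, 2 and 3. ACRE111B (LOC107808010) was at 3.84, 0.772 and 0.160 FPKM in the OE-NtispH libraries, against 0.057, 8.43 and 68.4 FPKM in the WT libraries. ACRE231 (LOC107788719) was at 2.76, 0.912 and 0.042 FPKM in the OE-NtispH libraries, listed at 0 in WT replicate 1, and at 4.81 and 36.1 FPKM in WT replicates 2 and 3. ACRE1, ACRE111B and ACRE231 shared with CYP71D20 a peak in WT replicate 3, then WT replicate 2, then OE-NtispH replicate 1, and a minimum in WT replicate 1. They did not share its order of OE-NtispH replicates 2 and 3. Over all 6 libraries, 1 of the 17 elicitor loci had the order of CYP71D20, against 0.147% of all tested loci. Elsewhere in the list, OE-NtispH replicates 1, 2 and 3 were the highest library for 2, 1 and 2 loci, and WT replicate 1 for 1.

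NtABS and NtPDR1 had no such peak: in the FPKM as deposited, NtABS was lowest in WT replicate 3, and NtPDR1 was near its lowest value there. The highest library of NtABS was only 1.29 times its lowest. WT replicate 3 had the smallest median-of-ratios factor, 0.935, so the rank of NtABS there depends on the scaling. The labels give no treatment, and what set WT replicate 3 apart was not tested.

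**Figure D3:**
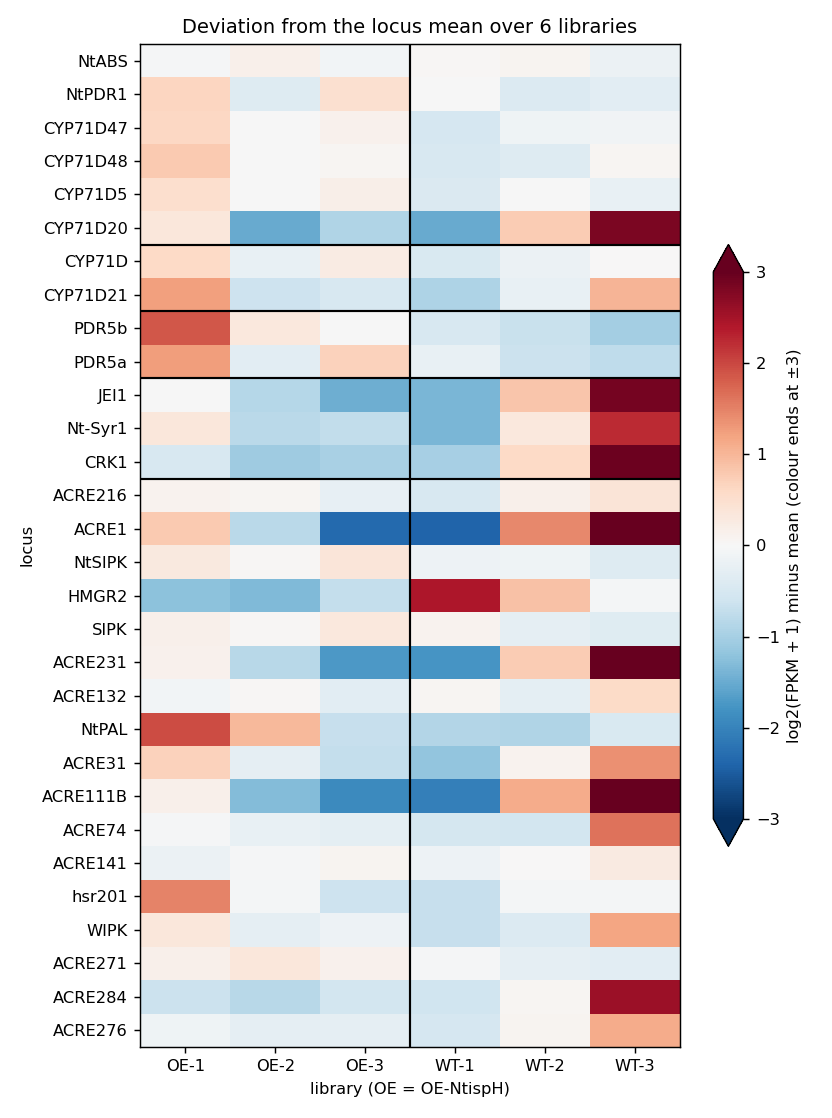
Deviation of log2(FPKM + 1) from each locus's mean over the 6 libraries (colour, ending at 3 in either direction) for OE-NtispH replicates 1 to 3 and WT replicates 1 to 3 (columns). Lines divide the 6 genes, 2 further CYP71D loci, the PDR5 genes, the 3 named loci nearest to CYP71D20 and the 17 elicitor genes; CYP71D20, JEI1, CRK1, ACRE1, ACRE231 and ACRE111B are dark red in WT replicate 3, while NtABS is nearly without colour.

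Likeness to each gene was measured over the 6 libraries as the root mean square difference between deviations from the locus mean in log2(FPKM + 1), among 907 loci with a gene name and a mean of at least 1 FPKM, the gene itself left out where it was one of them. For CYP71D20 the nearest were JEI1 (LOC107814828), Nt-Syr1 (LOC107768839), a syntaxin of membrane traffic, and CRK1 (LOC107818853), at 0.39, 0.42 and 0.44, where the median of all candidates was 1.57. JEI1 was at 5.03, 2.40 and 1.23 FPKM in OE-NtispH replicates 1, 2 and 3, against 1.35, 9.80 and 43.5 FPKM in WT replicates 1, 2 and 3. Its peak in WT replicate 3 follows from its choice by likeness to CYP71D20. For NtPDR1 the nearest were the nitrate transporter genes NtNRT1.1-s (LOC107800678) and NtNRT1.1-t (LOC107792216), at 0.08 and 0.10, and NtHsp70 (LOC107795135), a chaperone gene, at 0.15, with a median of 0.44. NtNRT1.1-s was at 29.9, 12.8 and 26.1 FPKM in the OE-NtispH libraries, against 17.0, 12.7 and 12.2 FPKM in the WT libraries. The dip in OE-NtispH replicate 2 that it shares with NtPDR1 likewise follows from the choice.

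For NtABS the nearest were GAPC (LOC107817426), of glycolysis, CCD1-1 (LOC107830214), a carotenoid cleavage dioxygenase gene, and md1 (LOC107772922), at 0.05, 0.07 and 0.07 against a median of 0.28. All 3 were nearly level across libraries, which follows from their choice by likeness to NtABS. The nearest to CYP71D47 was the locus named only CYP71D, at 0.11, followed by eIF-4A-11 (LOC107785067), a translation factor gene, and GA2ox5 (LOC107794361), of gibberellin breakdown, at 0.14 and 0.15, with a median of 0.37. CYP71D47 was itself among the 3 nearest to both CYP71D48, at 0.15, and CYP71D5, at 0.09. The others were SIPKK (LOC107818847), a MAP kinase kinase gene, and Nt-rab7c (LOC107764770) for CYP71D48, at 0.14 and 0.16, and PELOTA (LOC107790825) and AGP2 (LOC107772822) for CYP71D5, at 0.09 and 0.11. These likenesses rest on 6 libraries and are descriptions.

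**Figure D4:**
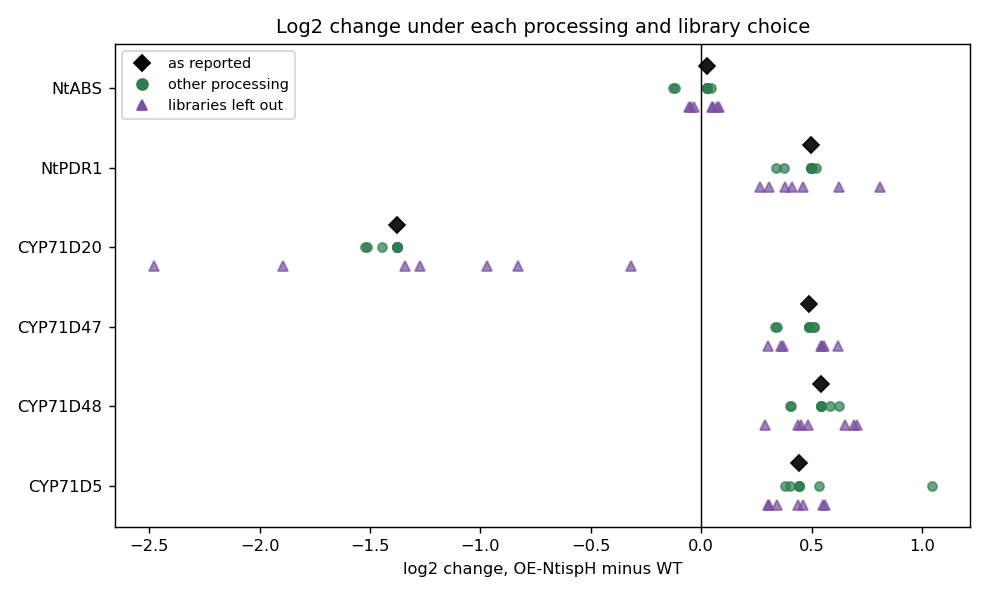
Log2 change between OE-NtispH and WT (horizontal axis) for each of the 6 genes (vertical axis) as reported (diamonds), under other processing (circles) and with libraries left out (triangles). NtABS falls on both sides of 0, NtPDR1, CYP71D47, CYP71D48 and CYP71D5 stay above 0, and CYP71D20 stays below 0 but ranges from -2.48 to -0.32.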

How the data were processed

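The authors deposited 1 table of FPKM values for 6 libraries, scaled by transcript length and by mapped fragments. Reads were handled with fastp, HISAT2, Bowtie2, RSEM and StringTie, per the submitters' processing notes. The sources used here name no version, genome build, annotation or rule for multi-mapping fragments. Because tobacco is an allotetraploid, fragments of near-identical parental copies and of related CYP71D genes could be split between loci. Read numbers are unknown. The commonest ratio of low values put depth at 1.02 to 1.18 times that of WT replicate 1, and no counting interval can be given. Only ratios near 1 were searched.

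Of 68476 loci, 40725 averaged at least 0.5 FPKM and were compared as log2(FPKM + 1) with limma 3.58.1 in R 4.3.3 (intensity trend, robust, two-sided, Benjamini-Hochberg at 0.05), a scale that understates changes of low genes. All 6 genes passed the filter, CYP71D5 only through its OE-NtispH values. Ratios to NtABS used exact permutation tests. The fit was tested on simulated data. Names came from the RefSeq gene table of another or unnamed build, so no coordinates are printed. Summaries used Python 3.11.15 with scipy 1.17.1, numpy 2.4.6, pandas 2.3.3 and matplotlib 3.10.9.

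The genes and lists were chosen with earlier results of these data known. Named genes were the 6, ISPH, and the 3 loci nearest in pattern to each gene. In each list other than the cell type markers, those called and the 3 of smallest p were also named. Outside this rule the other CYP71D loci are named, with Lhcb6, the only called locus among the cell type markers. So are FPPS, DXS (LOC107773391), HMGR1, QPT2A, ACRE1, ACRE111B and ACRE231, chosen after their values were seen. Lists were matched by gene symbol. Symbols of other families were then removed (cyclins, SPL factors and cyclophilins, for example), which left no terpene synthase locus besides NtABS and, for hair and surface genes, CYP71D51 alone, which was under the filter. Plastid-encoded genes were removed from the mesophyll list, since poly(A) selection captures them poorly.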

Additional observations from a re-analysis of the deposited data

How the results depend on the processing

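The count of genes called among the 6 was 0 under all alternatives run except without OE-NtispH replicate 2, where NtPDR1 passed (range 0 to 1 with 1 library left out). Directions held under all alternatives for NtPDR1 (log2 change 0.30 to 0.81 with 1 library left out, 0.27 without WT replicate 3 and OE-NtispH replicate 1), CYP71D20 (-2.48 to -0.32), CYP71D47 (0.30 to 0.62), CYP71D48 (0.29 to 0.71) and CYP71D5 (0.31 to 0.56). CYP71D5 was not tested at a mean of at least 2 FPKM. NtABS turned to -0.12 with median-of-ratios scaling, -0.13 with quantile normalization and -0.031 without WT replicate 3 and OE-NtispH replicate 1, and ranged from -0.056 to 0.080 with 1 library left out. The count over all tested loci was 737 (506 higher, 231 lower). It was 38 with no filter, 1375 at a mean of at least 2 FPKM, 330 with median-of-ratios scaling (136 higher, 194 lower), 53 without trend and robust estimation, 8 without WT replicate 3 and OE-NtispH replicate 1, and 0 to 3103 with 1 library left out; with quantile normalization 235 were higher and 360 lower. In the lists other than the cell type markers there were 4 calls. Of these, 0 were left with no filter, 0 without trend and robust estimation, 0 without WT replicate 3 and OE-NtispH replicate 1, and 0 to 14 were made with 1 library left out. The cause was not tested. With the replicate number as a block, 68 loci and 1 list gene were called. Libraries of the same number did not deviate together (correlations across genes of -0.13, 0.04 and -0.16), and 0 of 3 OE-NtispH libraries correlated best with the WT library of their own number. Differences of the ratios to NtABS kept their direction with a pseudocount of 0.1 and with each library left out. Read numbers are unknown, so what depth limits was not measured.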
